A study of Mus musculus with 6 samples.

Results

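Mammalian cells take up arginine, lysine and ornithine mainly through the cationic amino acid transporters of the Slc7 family, which work as single proteins. Large neutral amino acids such as leucine enter through heteromeric transporters, in which a light chain of the Slc7 family does the transport and the heavy chain encoded by Slc3a2 (CD98) carries it to the cell surface. The Slc43 family holds sodium-independent carriers of neutral amino acids and, in Slc43a3, a carrier of purine nucleobases. The 10 genes described here are 3 cationic transporters (Slc7a1, Slc7a2 and Slc7a3), 3 light chains (Slc7a5, Slc7a8 and Slc7a10), the heavy chain Slc3a2, and Slc43a1, Slc43a2 and Slc43a3. They were selected by symbol from 19938 genes, with the responses of Slc7a3 and Slc43a3 to the treatment already known. Their differences between treated and control cultures are therefore given as descriptions, with no test. Each of the 10 had exactly 1 row in the table.

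Expression was measured on 6 Affymetrix arrays, 3 for each of 2 groups. Neural cells from the brain of OF1 mouse embryos at embryonic day 17 had been allowed to differentiate with fetal calf serum, giving neurons and glia side by side, and were then kept in serum-free medium with no added growth factors. The treated group received 1,25-dihydroxyvitamin D3 (1,25D), the active hormone of vitamin D, at 10 nM, and the control group, labelled as not treated, received vehicle. The labels give neither the length of exposure nor whether embryos were pooled, and call the arrays biological replicates. The astrocyte marker Gfap and the neuron marker Map2 had control means of 11.61 and 10.94 on the log2 scale, against array medians between 7.91 and 7.98. Other defining markers were dimmer, with control means of 7.41 for the neuronal tubulin Tubb3 and 6.03 for the microglial gene Aif1. In RNA from a whole culture, fewer cells of a type and less RNA per cell cannot be told apart.

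Slc7a3, a cationic amino acid transporter known from neurons, had the largest difference of the 10 genes. Its log2 intensities were 7.84, 7.29 and 7.53 in control replicates 1, 2 and 3, and 11.08, 9.47 and 10.17 in 1,25D replicates 1, 2 and 3. All 3 treated arrays lay above every control, with a gap of 1.63 between the lowest treated and the highest control array. The controls were below the median gene of their arrays and the treated cultures above it. On the linear scale the intensity was 229.0, 156.7 and 184.4 in the controls and 2158.7, 710.3 and 1153.2 in the treated cultures. The mean went from 7.55 ± 0.27 to 10.24 ± 0.80 (SD, n = 3 each), a log2 difference of 2.69 ± 0.36 (SE) or 6.44-fold. Within replicate numbers 1, 2 and 3 the treated culture was 9.43-fold, 4.53-fold and 6.25-fold higher. The treated arrays thus spread more than the controls, and replicate 1 was the highest in both groups and replicate 2 the lowest. Of the 19938 genes, 2 had a log2 difference at least this large, Slc7a3 being one of them.

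The other cationic transporters differed by far less. Slc7a1, which most cell types express, had log2 intensities of 8.94, 8.77 and 8.90 in the controls and 9.43, 8.96 and 8.82 in the treated cultures. Replicate 1 of the treated group stood above the other 5 arrays, replicate 3 lay among the controls, and the groups overlapped. The log2 difference was 0.20 ± 0.16 (SE), with a 95% interval from -0.18 to 0.57. Slc7a2, whose product is known as the inducible cationic transporter of macrophages, was brighter. It read 9.93, 10.34 and 10.41 in the controls and 9.87, 10.46 and 10.53 in the treated cultures. Its level followed the replicate number, with both arrays of replicate 1 below the other 4, and the difference was 0.06 ± 0.20 (SE, 95% interval -0.42 to 0.53). The interval of Slc7a3, 1.84 to 3.53, did not meet those of its paralogs, an order that the choice of the genes built in.

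**Figure D1:**
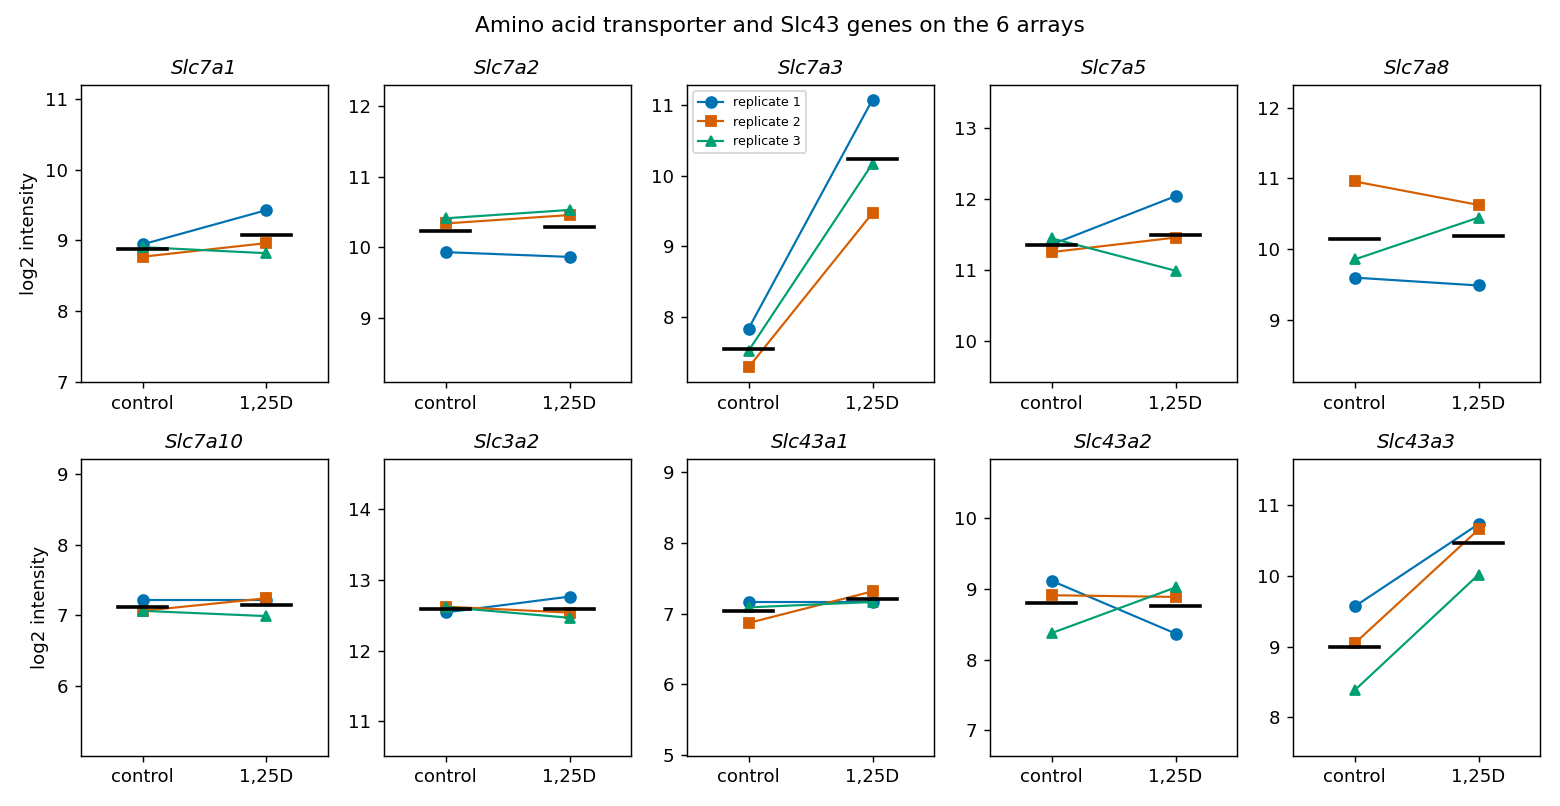
Log2 intensity (vertical axis, the same span in every panel but not the same start) of the 10 genes in control and 1,25D cultures; each coloured line joins the arrays of 1 replicate number and black bars are group means (n = 3 each). In Slc7a3 and Slc43a3 all 3 treated arrays lie above every control, and in the other 8 genes the groups overlap.

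The light chains and their heavy chain showed no common direction. Slc7a5, the main carrier of leucine and other large neutral amino acids at the blood-brain barrier, had log2 intensities of 11.36, 11.25 and 11.45 in the controls and 12.04, 11.46 and 10.99 in the treated cultures. The treated arrays lay on both sides of the controls, and their SD was 0.53 against 0.10. The log2 difference was 0.14 ± 0.24 (SE, 95% interval -0.41 to 0.70), made up of 0.68, 0.21 and -0.46 within replicate numbers 1, 2 and 3. Slc7a8, a light chain with a broader range of neutral substrates, read 9.60, 10.96 and 9.85 in the controls and 9.49, 10.63 and 10.45 in the treated cultures. Here too the replicate number carried most of the spread, with replicate 2 the highest and replicate 1 the lowest in both groups, and the difference was 0.05 ± 0.40 (SE, 95% interval -0.89 to 0.99). That interval leaves the replicate number in the spread. In the fit without it as a block, the interval is the widest of the 10 and covers changes of nearly 2-fold in either direction. With the replicate number as a block the SE of Slc7a8 was 0.17, smaller than that of Slc43a2 at 0.23.

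Slc7a10, the light chain that carries small neutral amino acids and D-serine, was dim, with log2 intensities of 7.22, 7.06 and 7.06 in the controls and 7.22, 7.24 and 6.99 in the treated cultures. Its difference was 0.03 ± 0.11 (SE). Slc3a2, the heavy chain, was bright and varied little, at 12.54, 12.62 and 12.62 in the controls and 12.76, 12.54 and 12.46 in the treated cultures. Its group means were 12.59 in both groups, and the difference was 0.00 ± 0.11 (SE, 95% interval -0.26 to 0.25). As with Slc7a5, the treated arrays of Slc3a2 lay on both sides of the controls, highest in replicate 1 and lowest in replicate 3.

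Slc43a3 was the other gene with separate groups. It is named with the amino acid carriers by family, while its known substrates are purine nucleobases such as adenine. Its log2 intensities were 9.57, 9.05 and 8.38 in the controls and 10.73, 10.66 and 10.02 in the treated cultures. Every treated array lay above every control, with a gap of 0.45, and replicate 3 was the lowest in both groups. The mean went from 9.00 ± 0.59 to 10.47 ± 0.39 (SD, n = 3 each), a log2 difference of 1.47 ± 0.31 (SE) or 2.77-fold. Within replicate numbers 1, 2 and 3 the treated culture was 2.24-fold, 3.06-fold and 3.11-fold higher. In 9 of the 19938 genes, Slc43a3 included, the difference was at least this large.

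The neutral amino acid carriers of the same family did not share that separation. Slc43a1 was dim, at 7.16, 6.87 and 7.09 in the controls and 7.16, 7.32 and 7.17 in the treated cultures, and had a difference of 0.17 ± 0.11 (SE, 95% interval -0.09 to 0.43). Slc43a2 read 9.11, 8.91 and 8.37 in the controls and 8.37, 8.89 and 9.02 in the treated cultures. Its arrays were in opposite order in the groups, so that the differences within replicate numbers were -0.75, -0.02 and 0.65, while the mean difference was -0.04 ± 0.23 (SE, 95% interval -0.58 to 0.49).

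**Figure D2:**
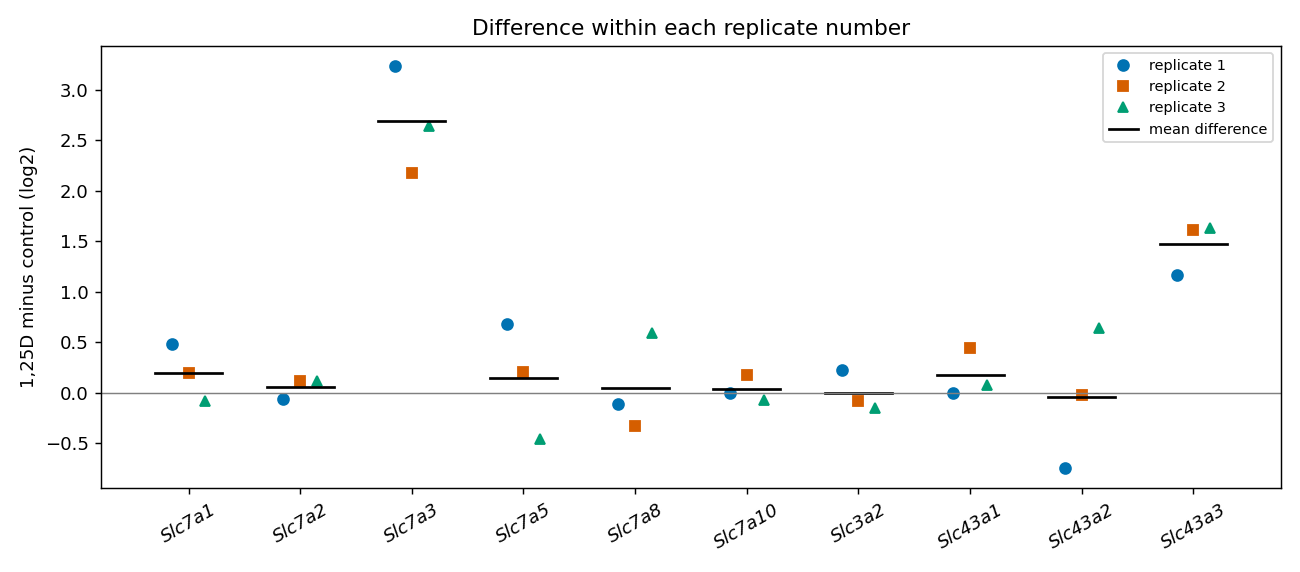
Difference between the 1,25D and control arrays of the same replicate number (log2, vertical axis) for each of the 10 genes, with the mean of the 3 as a black line. Slc7a3 and Slc43a3 are above 0 in all 3 replicate numbers, and the other 8 genes are on both sides of 0 or at 0 in 1 of them.

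Across the 10 genes, 2 (Slc7a3 and Slc43a3) had treated arrays that all lay above the controls, where 2.63% of all genes did, and 0 had treated arrays all below, where 1.52% of all genes did. The same 2 genes were higher within all 3 replicate numbers, against 14.8% of all genes, and none was lower in all 3. The median log2 difference was 0.10 over the 10 genes and 0.01 over all genes. In the limma fit across all genes, 0 of the 10 were called as higher at an adjusted p under 0.05, against 0.0251% of all genes. With the replicate number as a block, the 2 were called, against 0.0903% of all genes. Those calls are what chose the genes, and nothing is read from these counts. Slc7a10 and Slc43a1 had identical values in control replicate 1 and 1,25D replicate 1, as did 1094 genes (5.49%), which fixes their difference in that replicate number at 0. Both also lay below the median gene on all 6 arrays. For Slc43a1 the difference was 0.04 without replicate number 2, against 0.17 over all 6 arrays.

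**Figure D3:**
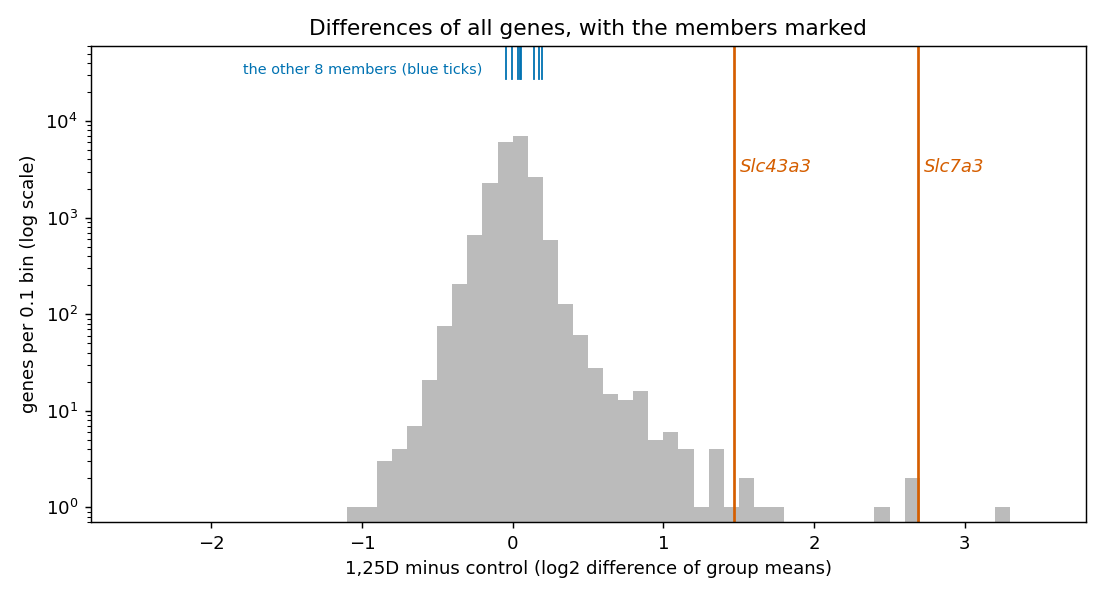
Number of genes (vertical axis, log scale) by log2 difference of 1,25D minus control (horizontal axis, bins of 0.1) for all 19938 genes. Vertical lines mark Slc43a3 at 1.47 and Slc7a3 at 2.69, and blue ticks at the top mark the other 8 genes, between -0.04 and 0.20.

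The spread between replicate numbers was tested for the 8 genes other than Slc7a3 and Slc43a3. The calls that chose those 2 were made with that spread removed, so their values in this test are descriptions. For each gene, limma's moderated F test asked whether the arrays numbered 1, 2 and 3 differed beyond the group difference. Over all genes 345 passed at an adjusted p under 0.05 (1.73%), and 5879 (29.5%) had an unadjusted p under 0.05. Of the 8 genes 0 passed, and 2 had an unadjusted p under 0.05, with adjusted p-values of 0.059 for Slc7a2 and 0.062 for Slc7a8. The adjusted values of Slc43a3 and Slc7a3 were 0.051 and 0.086. Means over both arrays of a replicate number were 9.54, 10.79 and 10.15 for Slc7a8 and 9.90, 10.40 and 10.47 for Slc7a2. The result depended on the setting, since Slc7a2 and Slc7a8 passed with array weights and without replicate number 3. Slc43a3 was under the threshold after quantile normalisation, with array weights and without replicate number 1, and Slc7a3 without replicate number 3. The differences between treated and control arrays also varied more among replicate numbers than for the typical gene. Their SD over the 3 replicate numbers had a median of 0.27 over the 10 genes and 0.14 over all genes, was above the latter in 8 of 10 genes, and ran from 0.11 for Slc7a2 to 0.70 for Slc43a2. All genes include many dim ones, while 7 of the 10 were above the median gene on all 6 arrays. Genes of like level were not compared. The 10 also include Slc7a3 and Slc43a3, chosen for their differences, with SDs of 0.53 and 0.26.

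The transporter genes Slc7a1, Slc7a5 and Slc3a2 are known targets of ATF4, the transcription factor that cells activate when amino acids run short or the endoplasmic reticulum is stressed. In all 3 the treated-minus-control difference was highest in replicate number 1 and lowest in replicate number 3. It was 0.48, 0.19 and -0.09 for Slc7a1, 0.68, 0.21 and -0.46 for Slc7a5, and 0.22, -0.08 and -0.15 for Slc3a2. That order held in these 3 of the 10 genes and in 20.2% of all genes. It was picked after the values were seen, and nothing is read from the count. A list of 22 genes of the ATF4 amino acid response, 21 of them measured, had median differences of 0.40, 0.11 and 0.03 in replicate numbers 1, 2 and 3, where the medians over all genes were 0.00, 0.03 and -0.01. In replicate number 1 the difference was above 0 in 18 of the 21 genes, and in replicate number 3 in 12. Of all 19938 genes, 9787 and 9554 were above 0 in these 2 replicate numbers. None of the 21 passed over all genes, without or with the block. The stress gene Nupr1 had the smallest unadjusted p among them, with a log2 difference of 1.35 ± 0.41 (SE), followed by the transcription factor Atf5 at 0.37 ± 0.19 (SE). The cystine transporter gene Slc7a11, which encodes another light chain and is on this list, had differences of 1.48, 0.57 and 0.03 in the 3 replicate numbers. Others on the list ran in other orders, such as Ddit4 at 0.08, 0.23 and 0.64 and Phgdh at -0.40, 0.09 and 0.10. The list's mean level on an array ran from 8.72 to 8.98 in the controls and from 8.80 to 9.45 in the treated cultures. Slc7a3 did not follow the order of the 3 transporter genes, with 3.24, 2.18 and 2.65. The part of this response in the spread of Slc7a1, Slc7a5 and Slc3a2 was not tested.

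**Figure D4:**
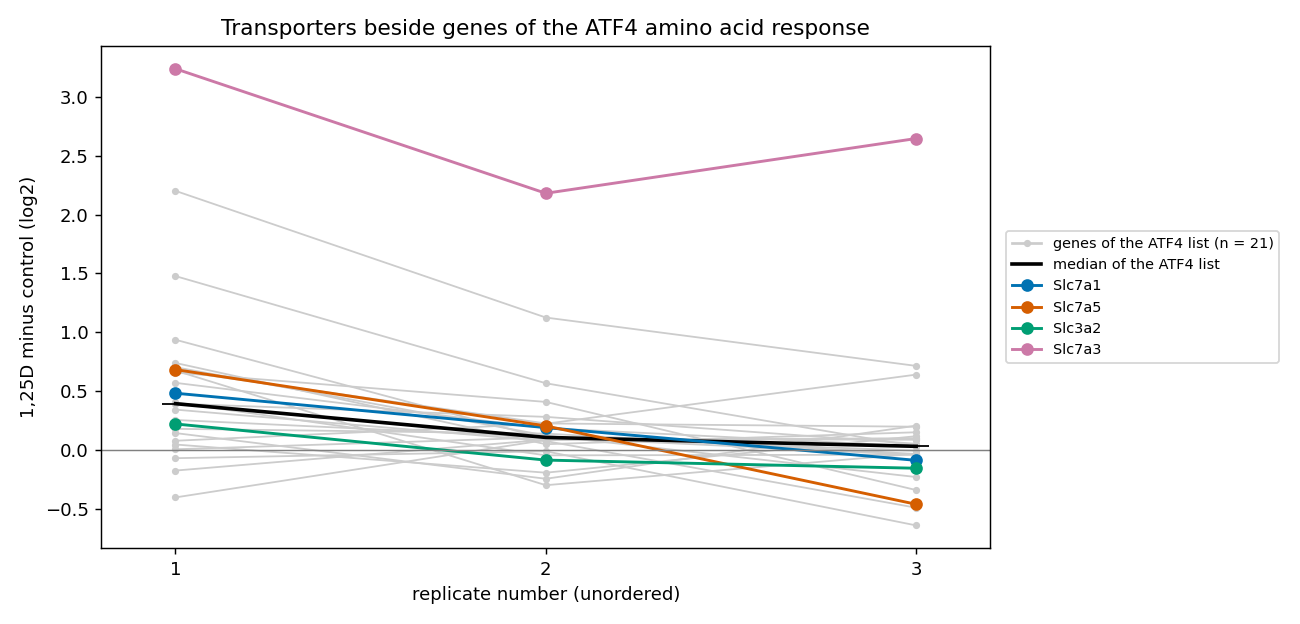
Difference between 1,25D and control arrays of the same replicate number (log2, vertical axis; the numbers have no order, and lines join the values of 1 gene) for Slc7a1, Slc7a5, Slc3a2 and Slc7a3 beside 21 genes of the ATF4 amino acid response and their median. The list median is 0.40 in replicate number 1 and 0.11 and 0.03 in the others. Within each replicate number Slc7a3, at 3.24, 2.18 and 2.65, is above the highest gene of the list, Nupr1, at 2.20, 1.13 and 0.72. Slc7a3 was chosen with its large difference known, so nothing is read from its place above the list.

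RefSeq start sites (GRCm38.p6) were at hand for 6 of the 10 genes, in 8 windows of 300 bases that run from 250 bases before to 50 after the start; Slc7a2, Slc7a3, Slc7a5 and Slc43a3 had no window in that table. The core of the C/EBP-ATF response element, TGATGCAA on either strand, through which ATF4 acts, was in 0 of the 8 windows and in 0.895% of all 32851 windows. Among 22 listed genes of the ATF4 response it was found for 6, Slc7a11 included. The vitamin D receptor's DR3 element, a pair of hexamer half-sites in direct repeat, was in 0 of the 8 windows and in 0.381% of all windows when a looser half-site was allowed, and in 0.0396% otherwise. Both elements were so rare over all windows that 0 of 8 says nothing about these genes. The first was also searched only as those exact letters, so variant sites would be missed. The 250 bases before the start are shown for Slc7a11, with its matches in capitals at 66 to 59 and, on the other strand, 47 to 40 bases before the start, and for Slc3a2 and Slc7a1, whose differences had the same order over replicate numbers and whose windows held no match. They lie at chr3:50443614-50443863, chr19:8713898-8714147 and chr5:148399905-148400154, all on the minus strand. Slc7a1 had 2 windows, and the bases before only 1 of its starts are shown.
Slc7a11: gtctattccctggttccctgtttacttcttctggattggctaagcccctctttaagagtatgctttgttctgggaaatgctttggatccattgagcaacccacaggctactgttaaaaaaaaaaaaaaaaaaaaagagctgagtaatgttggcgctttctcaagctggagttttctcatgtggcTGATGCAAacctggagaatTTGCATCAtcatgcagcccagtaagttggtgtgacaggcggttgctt
Slc3a2: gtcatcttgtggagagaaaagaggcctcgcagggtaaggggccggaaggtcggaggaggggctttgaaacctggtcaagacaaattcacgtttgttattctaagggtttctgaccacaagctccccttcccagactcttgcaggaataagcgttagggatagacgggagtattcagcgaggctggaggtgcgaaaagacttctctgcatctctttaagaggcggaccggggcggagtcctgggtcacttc
Slc7a1: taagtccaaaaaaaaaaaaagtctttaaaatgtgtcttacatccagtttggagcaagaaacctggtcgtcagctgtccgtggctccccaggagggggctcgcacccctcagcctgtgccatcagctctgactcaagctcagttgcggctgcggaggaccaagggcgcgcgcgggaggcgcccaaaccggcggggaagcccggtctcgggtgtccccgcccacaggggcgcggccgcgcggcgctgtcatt
The capitals mark where the letters occur, which by itself shows no binding.

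Transporters of cationic and neutral amino acids outside the 10 genes gave few differences of such size. Of the 10 other Slc7 and Slc3 genes, 0 rose and 0 fell (limma, adjusted over all genes), with or without the block. Their median log2 difference was 0.10, and the smallest unadjusted p-values without the block were those of Slc7a12 at 0.30 ± 0.17 and Slc7a13 at 0.16 ± 0.13 (SE), both of them dim. With the block the smallest was that of Slc7a11, which had the largest difference of these genes, 0.69 ± 0.61 (SE without the block), and was above 0 within all 3 replicate numbers. Of 26 neutral and proton-coupled amino acid transporters, 0 rose and 0 fell, with a median of 0.04. Slc1a5, a glutamine and neutral amino acid exchanger, had a difference of 0.55 ± 0.19 (SE), from 7.39 to 7.94, and was higher within all 3 replicate numbers (0.65, 0.70 and 0.30). Its relative Slc1a4 had a difference of -0.23 ± 0.11 (SE), with treated arrays all below the controls. In the 13 measured transporters of glutamate, GABA, glycine, proline and taurine, 0 passed without the block and 2 rose with it. These were Slc1a1, the neuronal glutamate transporter, with a log2 difference of 1.19 ± 0.13, and Slc6a11, a GABA transporter, with 0.86 ± 0.41 (SE without the block). With the block their SEs were 0.10 and 0.07, and each had an adjusted p of 0.024 in limma. Slc1a1 read 7.61, 8.05 and 7.65 in the controls and 8.99, 8.98 and 8.90 in the treated cultures. Unlike Slc7a3, its treated arrays were close together.

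Arginine is the main substrate of Slc7a3 and the source of nitric oxide, ornithine and polyamines. Of 23 measured genes of that metabolism 0 rose and 0 fell in either fit, and the median difference was -0.02. Nos1, the neuronal nitric oxide synthase, had the smallest unadjusted p. Its log2 intensities were 7.39, 7.11 and 7.19 in the controls and 8.56, 8.04 and 7.57 in the treated cultures, so that all treated arrays lay above the controls. The log2 difference was 0.83 ± 0.23 (SE) or 1.16, 0.94 and 0.38 within replicate numbers 1, 2 and 3, and the adjusted p was 1.00 without the block and 0.28 with it. Sat1, which acetylates polyamines for export, had a difference of 0.24 ± 0.13 (SE).

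Genes that use or sense leucine, the main substrate of Slc7a5 and Slc43a2, changed little. Of 16 measured genes of branched-chain amino acid breakdown and 30 of amino acid sensing by the kinase complex mTORC1, 0 rose and 0 fell in either fit, and the medians were -0.03 and 0.02. In the former list Bckdhb, a subunit of the branched-chain keto acid dehydrogenase, and Hibadh had differences of -0.23 ± 0.15 and -0.23 ± 0.17 (SE). In the latter, Lamtor5 and Eif4ebp1 had differences of 0.15 ± 0.10 and 0.20 ± 0.16 (SE). Of 17 genes of nucleobase and nucleoside transport and salvage, set beside Slc43a3, 0 rose and 0 fell in either fit, with a median of 0.04. Slc29a4 and Slc29a3, which encode equilibrative nucleoside transporters, had differences of 0.14 ± 0.12 and 0.15 ± 0.14 (SE). Over the 154 measured genes of the 8 lists, 4 had an unadjusted p under 0.05 in limma without the block (Slc1a5, Slc1a1, Nos1 and Nupr1) and 13 with it, where 295 and 1152 of all genes did.

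The genes whose levels were most like that of Slc7a3 over the 6 arrays were sought among the 900 genes that spanned at least 1 log2 unit. In order they were Ttc39c, Vdr, Grpr, Tmx3 and Lcn8, with Pearson correlations of 0.997, 0.980, 0.975, 0.973 and 0.970. Ttc39c had a log2 difference of 0.88 ± 0.15 (SE), with 1.11, 0.76 and 0.77 in replicate numbers 1, 2 and 3. Vdr, the vitamin D receptor, had 2.38, 1.58 and 1.32. Of these 5, Grpr and Lcn8 rose in both fits, and the other 3 passed in neither. The 5 genes most like Slc43a3 were Gdpd5, Rab9b, Sfrp2, Relt and Adamtsl5, with correlations between 0.97 and 0.99. Of them, Gdpd5, Rab9b, Sfrp2 and Adamtsl5 rose with the block and Relt did not pass, and 0 of the 5 passed without it. All 10 had groups that did not overlap, and a group difference shared by 2 genes raises such a correlation by itself.

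Several of these transporters are known from particular cell types, Slc7a3 from neurons and Slc7a5 and Slc43a3 from brain endothelium. Of 14 neuron markers 5 had a higher mean in the treated cultures, their median difference was -0.03, and their mean level on an array ran from 7.64 to 8.11 in the controls and from 7.50 to 8.10 in the treated cultures. Of 15 endothelial markers 9 had a higher mean, with a median of 0.06 and a mean level from 7.75 to 7.89 and from 7.82 to 7.95. The endothelial genes Cldn5 and Pecam1 had control means of 7.64 and 6.88, below the median gene, and differences of 0.09 ± 0.11 and -0.04 ± 0.13 (SE). Of 10 microglia markers 8 had a higher mean, with a median of 0.06, and of 12 astrocyte markers 3, with a median of -0.07. The pericyte and fibroblast, oligodendrocyte and progenitor markers had medians of 0.05, -0.08 and -0.07, with a higher mean in 7 of 9, 3 of 9 and 1 of 7. Over all genes 10563 of 19938 had a higher mean, with a median of 0.01. None of the 76 measured markers in the 7 lists passed in either fit. Of 19938 genes, 295 without and 1152 with the block had an unadjusted p under 0.05 in limma, and of the markers 2 and 7. The 2 were the neuron marker Rbfox3, at -0.34 ± 0.14 (SE) with every treated array below the controls, and the pericyte marker Pdgfrb, at 0.48 ± 0.20 (SE) and above 0 within all 3 replicate numbers. Other pericyte markers differed less, with 0.02 for Rgs5, -0.01 for Anpep, 0.15 for Kcnj8, -0.05 for Abcc9 and 0.02 for Notch3. Of the fibroblast genes on that list, Col1a1 had a difference of 0.42 ± 0.18 (SE), with every treated array above the controls. Dcn and Lum had 0.06 and 0.05. The endothelial marker Mfsd2a, a lipid transporter of the blood-brain barrier, had a control mean of 11.85 and differences of 0.49, 0.32 and 0.44 within replicate numbers 1, 2 and 3. Kdr and Ocln of the same list had mean differences below 0, at -0.16 ± 0.28 and -0.24 ± 0.28 (SE). The part of cell content in the differences of Slc7a3 and Slc43a3 was not tested.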

How the data were processed

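The deposited values are linear intensities per probe set, which the authors made with RMA (Affymetrix Expression Console), as the labels' processing notes name them. The sources used here give no versions, filters or genome build. Log2 was taken of each deposited intensity, here and not by the authors. Of 35556 rows, 21789 had 1 gene symbol in GEO's platform annotation, 1621 had several and 12146 were unnamed here; the 19938 genes with such a row were kept, and where a gene had several rows (999 genes) the brightest by its mean was used. Differences are 1,25D minus control from limma 3.58.1 in R 4.3.3 (lmFit, eBayes), Benjamini-Hochberg adjusted over all genes, threshold 0.05, with no filter on dim genes. SE and 95% intervals use limma's moderated variance, from the fit without the replicate block unless stated. The fits were tested on simulated data.

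Arrays with equal replicate numbers deviated together from their group means (r = 0.512, 0.645 and 0.457), so the numbers were treated as pairs, on the data and not the labels, and the fit with them as a block stands beside the main one. The labels call the replicates biological but do not say whether they were separate cultures, litters or days, so p-values measure the spread between these arrays, whatever its source. With 3 arrays against 3, an exact permutation test of 1 gene cannot go below p = 0.1. The number of arrays limits the precision.

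The 10 genes and the lists were chosen with earlier results of these data known. Of the 164 list genes of the 8 pathway lists, 154 were measured. Named list genes are those that passed in either fit, or otherwise the 2 with the smallest unadjusted p; Slc7a11, the single marker genes and the order over replicate numbers were chosen after their values were seen. No coordinates of probe sets are given.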

Additional observations from a re-analysis of the deposited data

How the results depend on the processing

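Slc7a3 and Slc43a3 were higher in the treated cultures in all 13 repeats run on each. Since every treated array lay above every control, leaving out arrays could not change that direction. Their log2 differences ran from 2.27 to 3.07 and from 1.16 to 1.76 when arrays or replicate numbers were left out. Scaling and row choice moved no member by more than its replicate SD. With the replicate block, 18 genes were called (25 with quantile normalisation), against 5 without it, and 2 list genes in both blocked fits, Slc1a1 and Slc6a11. Blocked and without replicate number 1, 2 or 3, the calls were 40, 3 and 45 genes, with Slc7a3 and Slc43a3 among them except without replicate number 2, and 3, 0 and 3 list genes. Leaving out 1 array gave 0 to 2 called genes, 2 to 5 members with separate groups (8.92% to 15.7% of all genes) and 2 to 4 members higher in every remaining pair (21.1% to 33.1% of all genes). Separate groups were seen in 5 members without 1,25D replicate 1 and in 4 without 1,25D replicate 3, and 4 members were higher in every remaining pair without either array of replicate number 1 or 3. The replicate number effect was called in 227 genes without the lowest 25% of genes, 927 with array weights, and 1206, 0 and 1084 without replicate number 1, 2 or 3, with Slc7a2 and Slc7a8 among those called with array weights and without replicate number 3. The causes of these changes were not tested.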
